A study of Gossypium hirsutum with 3 samples.

Results

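Ribosomal proteins and translation factors were examined in cotton, Gossypium hirsutum, at 1 dpa (day post anthesis, the day after the flower opened), when single cells of the ovule epidermis begin to grow out as fibers. The members were the genes in the study's table of changed transcripts that are described there as a ribosomal protein, an initiation factor or an elongation factor, without mention of a kinase, a mitochondrion, a chloroplast or a plastid. This rule found 42 of the 11143 genes on the array, comprising 19 numbered proteins of the large ribosomal subunit, 10 of the small subunit, 5 ribosomal proteins without a subunit number and 8 translation factors. That table was drawn up partly on these same arrays. The members were thus selected on the fiber to ovule ratios of these arrays together with others, and the ratios below are a description of genes chosen by that contrast, in which a call from the fit across all genes is counted but is no test of a member.

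The study compared RNA of fiber initials with RNA of whole ovules from field grown plants on 3 arrays, each hybridized with 1 fiber and 1 ovule RNA in different dyes. Fiber initials had been dislodged from frozen ovules by vortexing with glass beads, and the material was of the cultivars DES119 and ST4793R. Ovules were extracted whole, with their fiber initials still attached, so the comparison sets initials against tissue that contains them. The labels name total RNA as the molecule but a polyribosomal isolation as the extraction, and the study's methods give polyribosomal RNA, the RNA bound to ribosomes. The methods describe replicates harvested on different days.

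The scanner output names the RNA of either channel by a code that begins with SP2 or SP1. By these codes, SP2 RNA was dyed green (Cy3) on arrays 1 and 3 but red (Cy5) on array 2, and the code SP2A stood on both array 1 and array 2. In the labels, fiber RNA is red on array 3 only and green otherwise, so codes and labels did not match. The red over green ratios of all genes correlated at -0.58 between arrays 1 and 2, 0.52 between arrays 1 and 3 and -0.81 between arrays 2 and 3, across 11081 genes that are not independent replicates. These signs follow the codes, by which array 2 has the dyes exchanged, and not the labels, by which array 3 has. All ratios are given as SP2 over SP1 RNA on a log2 scale, where a value of 1 is a doubling. If the label of array 1 holds, SP2 is fiber RNA and SP1 is ovule RNA. If the labels of arrays 2 and 3 hold, SP2 is ovule RNA, every direction below turns with its size kept, and the 37 members called higher below become lower while the 1 called lower becomes higher. With each array turned as its own label has it, 40 of the 42 signs of the members' means turned and 0 members were called. Of 5 marker genes of young fiber, 2 were called higher in SP2 RNA and none lower, with the values given at the end.

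The ribosome is built of a large subunit, which joins amino acids, and a small subunit, which reads the messenger RNA. Initiation factors bring the small subunit, the first tRNA and the message together, and elongation factors deliver each further aminoacyl tRNA and move the ribosome along. Plastids and mitochondria hold ribosomes of bacterial type, whose subunits are called 50S and 30S. Fiber cells enlarge rapidly after they emerge, and growing plant cells are known for large nucleoli, the sites where ribosomes are assembled. Ribosomal proteins are encoded by families of similar genes, in cotton with copies from both parental genomes, and probes to one copy may also bind another.

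All 42 members had signals above background in both RNAs on the 3 arrays, no member spot was saturated, and 42 of 42 passed the filter on dim probes. Of the members, 37 were called higher in SP2 RNA with limma (adjusted p under 0.05 over 11081 genes), where 3.95% of all genes tested were called higher. Only 1 of 42 was called lower, where 8.31% of all genes were. The ratio was positive on each of the 3 arrays in 40 members, as it was in 20.9% of all genes, and 22 members reached a mean of 2-fold or more, as did 1.74% of all genes. In 40 of 42 members each of the 3 SP2 signals was above each of the 3 SP1 signals, a separation seen in 6.52% of all genes. These shares only describe the genes that the table selected. The signals, here and below, were background-subtracted but not normalized. Their medians in SP2 and SP1 RNA were 249 and 311 on array 1, 270 and 213 on array 2, and 182 and 131 on array 3. The separation thus includes this difference between channels. The count of members called higher was 15 when arrays were centred on their medians in place of loess and 18 in the deposited ratios, with the sign of all 42 members kept in both. Calls fell over all genes too, from 438 called higher in the main fit to 80 with median centring and 90 in the deposited ratios. The count of members was 0 with an ordinary test of each gene, which does not pool the error across genes and called 2 genes in all. It was also 0 with the orientation by the labels, where 0 of all genes were called higher.

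The median over the members was 0.93, 1.07 and 0.87 on arrays 1, 2 and 3, against 0.06, -0.02 and -0.02 over all genes tested. The central 50% of the members had means between 0.83 and 1.20, and their median SD over the 3 arrays was 0.27, close to the 0.24 of all genes. The 978 other tabulated genes that were tested had a median of 0.12 and were split into 280 called higher, 293 called lower and 405 not called. Because the RNA came from bulk samples, fewer cells of a type and less RNA per cell cannot be told apart in any of these ratios.

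**Figure D1:**
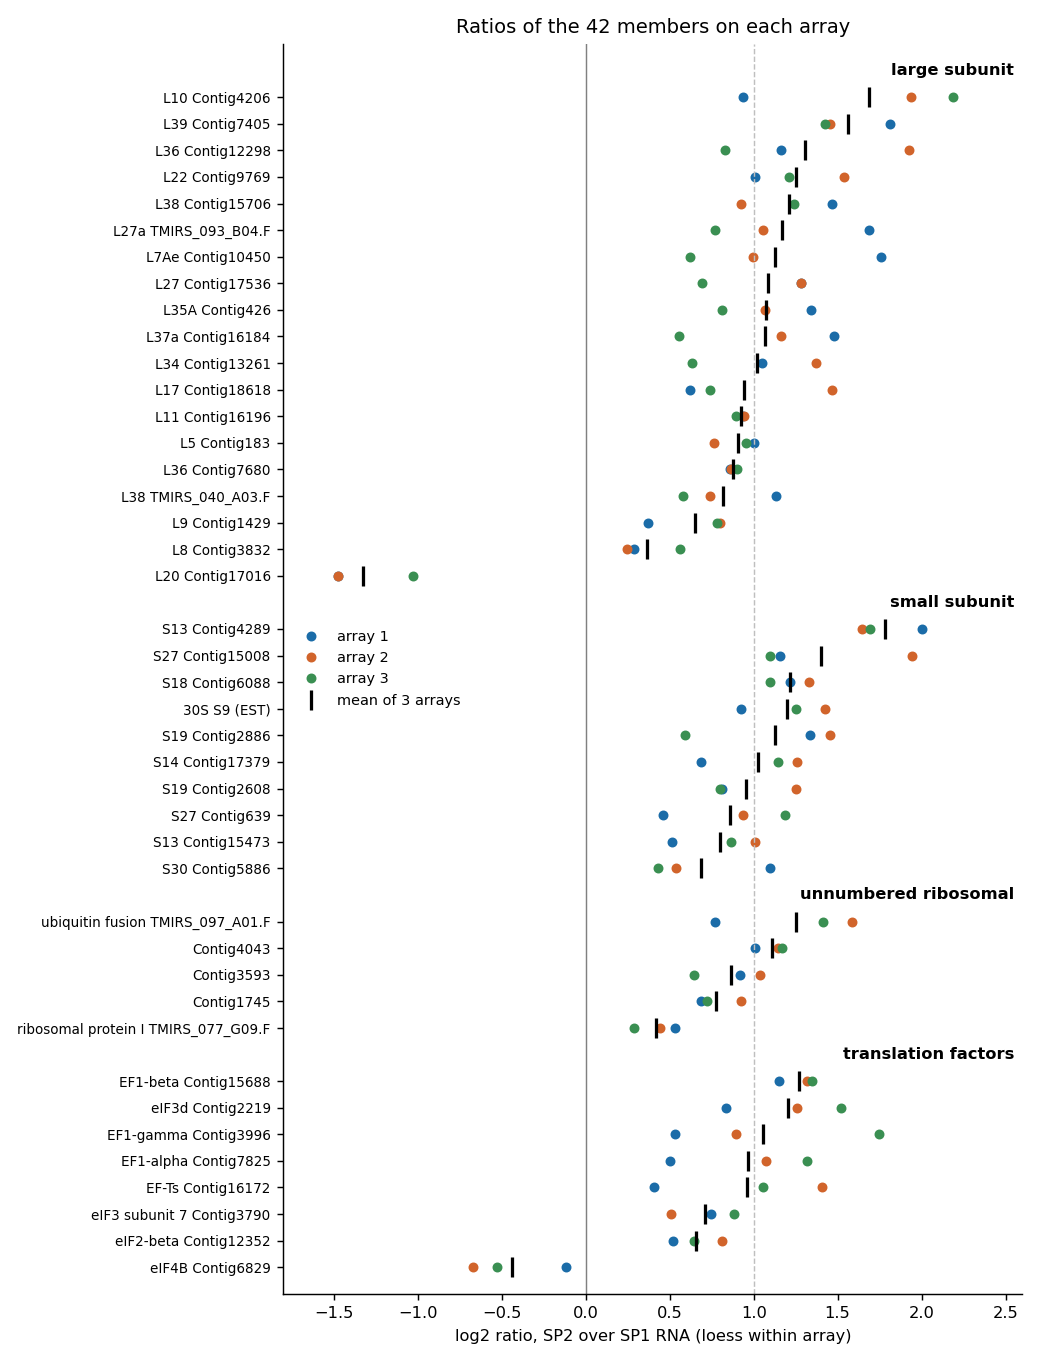
Log2 ratios of SP2 over SP1 RNA for the 42 members, with 1 point per array and a bar at the mean of the 3 arrays, ordered by mean within each class. The dashed line marks a doubling. 40 members lie above 0 on all arrays, and L20 and eIF4B lie below 0 on all arrays.

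In the large subunit, 17 of 19 members were called higher, 1 was called lower and 1 was not called. L10, which joins the large subunit late in its assembly, had the highest mean. Its probes gave signals of 12876, 17727 and 13200 scanner units in SP2 RNA on arrays 1, 2 and 3, against 5175, 2151 and 1910 in SP1 RNA. The ratios were 0.94, 1.94 and 2.19, a mean of 1.69 ± 0.66 (SD, n = 3), or 3.22-fold. Array 1 was the low one for this gene, and the groups of signals did not overlap.

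L39, a small protein at the tunnel through which the new chain leaves the ribosome, came next. Its signals were 4615, 2868 and 3795 in SP2 RNA against 1569, 628 and 1122 in SP1 RNA, and its ratios of 1.81, 1.45 and 1.43 averaged 1.56 ± 0.21. The match that gave Contig7405 the name L39 was a weak one in the study's table. L36, here Contig12298, gave 8802, 6975 and 7084 in SP2 RNA and 3802, 1170 and 3390 in SP1 RNA. Its ratios of 1.16, 1.92 and 0.83 averaged 1.31 ± 0.56, with array 2 as the high one.

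The other large subunit members called higher had means between 0.65 and 1.25. L22 averaged 1.25 ± 0.27 and L27a 1.17 ± 0.47. L5 and L11 bind the 5S ribosomal RNA of the large subunit together, and they had means of 0.91 ± 0.12 and 0.93 ± 0.03. L17, which lines the exit tunnel, averaged 0.94 ± 0.46, with 1.47 on array 2 and 0.62 and 0.74 on arrays 1 and 3. The spread between arrays thus differed widely among proteins of similar mean, from an SD of 0.03 in L11 to 0.46 in L17. A member of the L7Ae family, proteins that bind kinked RNA, had ratios of 1.76, 1.00 and 0.62 from its single probe.

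L8, which lies close to the center where peptide bonds form, was positive on each array but not called. Its 1 probe was bright on all arrays, with signals of 49610, 59514 and 54875 in SP2 RNA against 41117, 15914 and 22250 in SP1 RNA. The normalized ratios were 0.29, 0.24 and 0.56, a mean of 0.36 ± 0.17, whereas the ratios as deposited were 0.27, 1.90 and 1.30. The signals did not overlap, and the small normalized ratio of array 2 followed a shift of -1.66 by the normalization.

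L20 was the only member called lower. The name is that of a large subunit protein of bacterial and organellar ribosomes, and its match in the study's table was weak. Its signals were 730, 583 and 390 in SP2 RNA and 2346, 1136 and 639 in SP1 RNA, lower in SP2 RNA on each array although the ranges overlapped between arrays. The ratios of -1.47, -1.48 and -1.03 averaged -1.33 ± 0.26, or 2.51-fold lower, and none of its 4 probes had a positive mean.

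**Figure D2:**
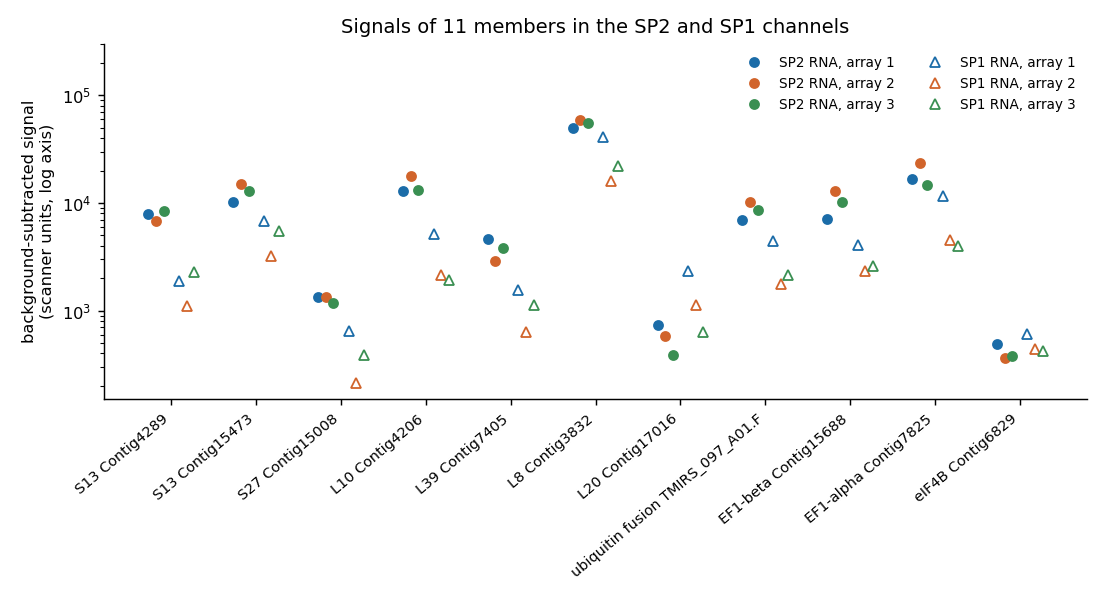
Background-subtracted signals of 11 members in scanner units on a log axis, with filled circles for SP2 RNA left of open triangles for SP1 RNA and 1 color per array. In L10 (12876 to 17727 in SP2 RNA, 1910 to 5175 in SP1 RNA) the groups are apart, and in L20 and eIF4B they overlap. Brightness is compared within a gene only.

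In the small subunit, 9 of 10 members were called higher and none lower. S13, here Contig4289, had the highest mean of all 42 members. Its signals were 7971, 6857 and 8476 in SP2 RNA against 1888, 1094 and 2268 in SP1 RNA, and its ratios were 2.00, 1.65 and 1.69. The mean was 1.78 ± 0.19, or 3.44-fold, with arrays in close range of each other.

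S27, a zinc finger protein of the small subunit, was next as Contig15008. It gave 1341, 1339 and 1167 in SP2 RNA against 652, 212 and 389 in SP1 RNA, with ratios of 1.16, 1.94 and 1.10 and a mean of 1.40 ± 0.47. The SP2 signals were alike on the 3 arrays, and the SP1 signal of array 2 was the lowest. S18 gave 14032, 11641 and 12245 in SP2 RNA and 4328, 2027 and 4041 in SP1 RNA, and its ratios of 1.21, 1.33 and 1.10 averaged 1.21 ± 0.12.

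S14, a protein of the small subunit platform, averaged 1.03 ± 0.30. S30, which in mammals is made as a fusion with a ubiquitin-like protein, was the small subunit member with the lowest mean and was not called. Its signals were 2906, 1400 and 1376 in SP2 RNA against 1245, 641 and 709 in SP1 RNA. The ratios were 1.10, 0.54 and 0.43, a mean of 0.69 ± 0.36, with array 1 as the high one. Its 4 probes had means of -0.08, 0.72, 0.97 and 1.14, so that probe 1 stood apart from the rest.

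Of the 5 ribosomal proteins without a subunit number, 4 were called higher and none lower. The highest was a ubiquitin fusion, TMIRS_097_A01.F, a kind of protein that is cut into free ubiquitin and a ribosomal protein. Its signals were 6905, 10263 and 8540 in SP2 RNA against 4451, 1785 and 2126 in SP1 RNA. The ratios of 0.77, 1.59 and 1.41 averaged 1.25 ± 0.43, and array 1 was the low one.

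Contig4043 had ratios of 1.01, 1.15 and 1.17 and a mean of 1.11 ± 0.09, and Contig3593 had 0.92, 1.04 and 0.64 and a mean of 0.87 ± 0.20. TMIRS_077_G09.F, described as ribosomal protein I, gave 2275, 2333 and 1848 in SP2 RNA against 1600, 1006 and 1141 in SP1 RNA. Its ratios of 0.53, 0.44 and 0.28 averaged 0.42 ± 0.12 and were not called, though the signals did not overlap.

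Of the 8 translation factors, 7 were called higher and none lower. The 4 elongation factors were all called. EF1-alpha carries aminoacyl tRNA to the ribosome, EF1-beta exchanges its nucleotide and EF1-gamma holds that exchange complex together. EF1-beta, the highest factor, gave 7057, 12878 and 10147 in SP2 RNA against 4047, 2345 and 2615 in SP1 RNA. Its ratios of 1.15, 1.31 and 1.35 averaged 1.27 ± 0.10, the tightest of the factors.

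EF1-gamma gave 8556, 15131 and 15083 in SP2 RNA and 5539, 3533 and 3913 in SP1 RNA. Its ratios of 0.53, 0.89 and 1.75 averaged 1.06 ± 0.62. EF1-alpha had 0.50, 1.07 and 1.31, a mean of 0.96 ± 0.42, from signals of 16854, 23678 and 14850 in SP2 RNA against 11505, 4555 and 3984 in SP1 RNA. EF-Ts, a nucleotide exchange factor of bacteria and organelles, had 0.41, 1.41 and 1.06, a mean of 0.96 ± 0.51. Array 1 was the lowest in each of the 4 elongation factors.

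The initiation factors were more mixed. A gene described as eIF3d, a subunit of the large complex that holds the small subunit ready for the message, gave 1961, 2449 and 1868 in SP2 RNA against 1206, 621 and 467 in SP1 RNA. Its ratios of 0.83, 1.26 and 1.52 averaged 1.20 ± 0.35. The beta subunit of eIF2, the factor that carries the initiator tRNA, averaged 0.66 ± 0.15 with ratios of 0.52, 0.81 and 0.64.

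eIF4B, which stimulates the helicase that opens the leader of a message, was the factor with the lowest mean. Its 1 probe was dim, with 490, 366 and 379 in SP2 RNA against 609, 437 and 419 in SP1 RNA. The ratios of -0.12, -0.67 and -0.53 averaged -0.44 ± 0.29 and were not called. SP2 RNA was the lower on each array, and the signals overlapped between arrays. With array 1 left out, eIF4B was called lower.

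The classes differed little from one another, and their order changed between arrays. Large subunit proteins had medians of 1.05, 1.06 and 0.78 on arrays 1, 2 and 3, and small subunit proteins had 1.01, 1.29 and 1.10. The large minus small difference was 0.04, -0.24 and -0.32, a mean of -0.17 ± 0.19 (SD, n = 3 arrays), within the spread between arrays. With 3 arrays, an exact test of such a difference cannot go below p = 0.25.

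The factors had medians of 0.52, 0.98 and 1.19, against 1.00, 1.11 and 0.82 for the 34 ribosomal proteins of all kinds. Their difference was -0.48, -0.12 and 0.37, a mean of -0.08 ± 0.42, so that factors were below ribosomal proteins on array 1 and above them on array 3. The 4 elongation factors had medians of 0.52, 1.19 and 1.33 and the 4 initiation factors 0.63, 0.66 and 0.76. The change of order thus lay mostly in the elongation factors.

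**Figure D3:**
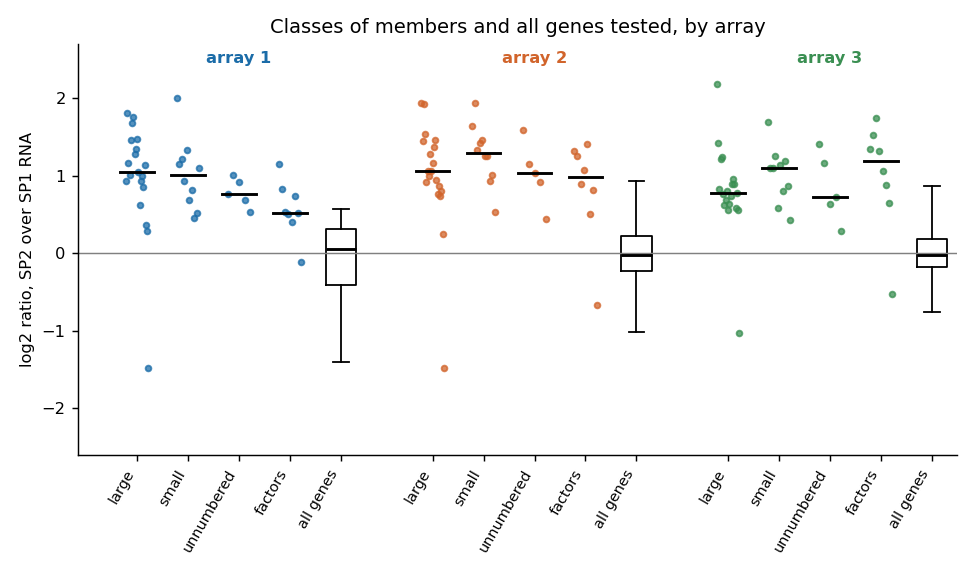
Log2 ratios of the members by class on each array, with points for genes and a line at the class median, left of a box for all 11081 genes tested (quartiles, whiskers at the 5th and 95th percentiles). Class medians lie between 0.52 and 1.29, those of all genes between -0.02 and 0.06, and the factors change place relative to the ribosomal proteins.

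The members that led on one array did not always lead on another. The 3 highest were S13 (Contig4289), L39 and the L7Ae member on array 1, S27 (Contig15008), L10 and L36 (Contig12298) on array 2, and L10, EF1-gamma and S13 (Contig4289) on array 3. Across the 42 members, Spearman's rho was 0.13 between arrays 1 and 3 and 0.53 between arrays 2 and 3, over points that share the array, its probes and, between genes, similar sequence. The members' highest ratio fell on array 1 in 12 genes, on array 2 in 19 and on array 3 in 11. Their common direction was thus steadier than their order. The members were selected partly on these same ratios, which bears on their direction, so this contrast is a description only.

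A protein number was shared by 2 members in 5 cases, and the copies differed by varying amounts. S13 had the widest gap, with Contig4289 above Contig15473 by 1.48, 0.64 and 0.83 on arrays 1, 2 and 3, a mean of 0.98 ± 0.44. Contig15473 gave 10320, 15037 and 12943 in SP2 RNA and 6771, 3218 and 5448 in SP1 RNA, with ratios of 0.52, 1.01 and 0.86. The gap had 1 sign on all arrays and was larger than its SD.

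The L38 copies also kept their order, with Contig15706 above TMIRS_040_A03.F by 0.33, 0.18 and 0.66, a mean of 0.39 ± 0.24. L38 is known in mouse for a part in the translation of particular messages. Contig15706, with 1 probe, gave 4764, 2762 and 4016 in SP2 RNA against 1996, 871 and 1231 in SP1 RNA, while TMIRS_040_A03.F gave 2754, 2030 and 2200 against 1144, 610 and 980. Signals did not overlap in either copy. The 4 probes of TMIRS_040_A03.F had means of 0.43, 1.42, 0.96 and 0.47. The mean of Contig15706, 1.21, lay within that range, so its single probe does not separate the copies beyond the spread between probes.

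The copies of S27, S19 and L36 changed order on array 3. Contig15008 was above the other S27 gene, Contig639, by 0.70 and 1.01 on arrays 1 and 2 and by -0.09 on array 3, a mean of 0.54 ± 0.57. The S19 copies, of a protein needed for maturation of the small subunit, differed by 0.52, 0.21 and -0.21, a mean of 0.17 ± 0.37 (Contig2886 minus Contig2608). The L36 copies differed by 0.31, 1.06 and -0.07, a mean of 0.43 ± 0.57 (Contig12298 minus Contig7680). None of these 3 gaps exceeded the spread between arrays. Contig7680 was among the steadiest members, with 0.86, 0.87 and 0.90.

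The gene described as eIF3 subunit 7, a former human name of eIF3d, was set beside the eIF3d gene. It gave 5989, 5246 and 4417 in SP2 RNA and 3069, 1847 and 1568 in SP1 RNA, with ratios of 0.74, 0.51 and 0.88. The eIF3d gene was above it by 0.09, 0.75 and 0.64, a mean of 0.49 ± 0.35. The order of the gene means held on the 3 arrays, with little difference on array 1. On that array the probes of eIF3 subunit 7 had -0.53, 0.70, 1.36 and 1.44. Those of the eIF3d gene had 0.55, 0.68, 1.09 and 1.01, so the order there depended on the probe.

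At the threshold of a doubling, L34 lay just inside with a mean of 1.02 and EF1-alpha just outside with 0.96. At the threshold of the limma call, L9, named for the 50S subunit, lay just inside with a mean of 0.65 ± 0.24, and S30 lay just outside with a larger mean of 0.69 and a larger SD of 0.36.

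The ribosomal proteins named for organelles or bacteria did not move as 1 group. The singleton described as 30S protein S9 had ratios of 0.93, 1.42 and 1.25, a mean of 1.20 ± 0.25, from signals of 1637, 2603 and 1691 in SP2 RNA against 848, 603 and 536 in SP1 RNA. L9 of the 50S subunit was at 0.37, 0.80 and 0.78. L20 was lower, as given above, and EF-Ts was higher. A mitochondrial ribosomal protein outside the rule, TMIRS_103_E11.F, had 0.59, 0.11 and -0.36, a mean of 0.12 ± 0.47, and was not called. Without the 4 organellar or bacterial names, 34 of 38 members were called higher and 0 lower.

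The size of the ratios depended on the normalization, which followed brightness. As deposited, with background subtracted and no dye normalization, the members' medians were 0.74, 1.97 and 1.38 on arrays 1, 2 and 3. After loess they were 0.93, 1.07 and 0.87, a median shift of 0.17, -0.84 and -0.53. All genes shifted by a median of 0.14, -0.31 and -0.50, so that on array 2 the members were pulled down further than the genes at large. The loess brought the 3 arrays closer together in the members. In the deposited ratios, array 2 was above array 1 for every member but the L7Ae gene, L10 for example having 0.77, 3.01 and 2.74.

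**Figure D4:**
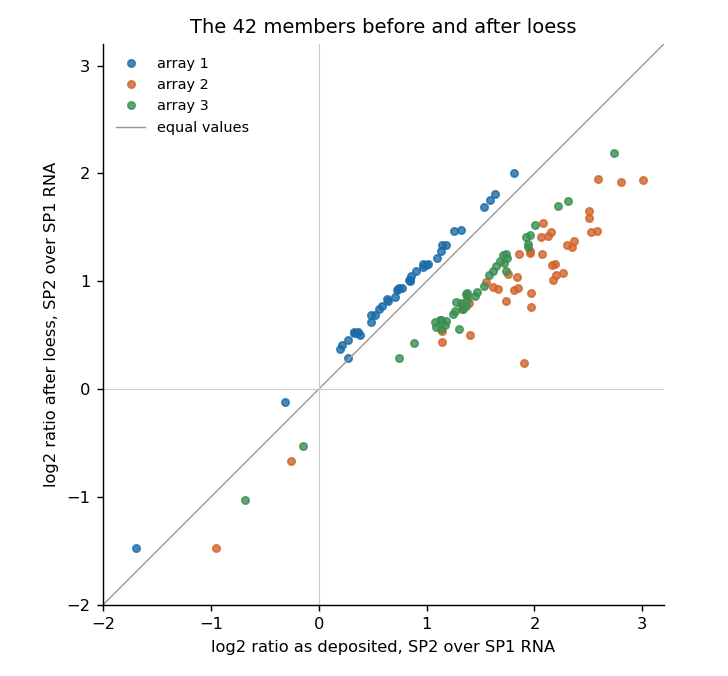
Log2 ratio of SP2 over SP1 RNA after loess against the ratio as deposited for the 42 members, with 1 color per array and a line at equal values. Array 1 lies slightly above the line (median shift 0.17), and arrays 2 and 3 lie below it (median shifts -0.84 and -0.53).

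The members had 150 probes, all kept, with 4 probes in 32 genes, 3 in 6 genes and 1 in 4 genes. The mean ratio was positive at 144 of 150 probes, and 136 were positive on each of the 3 arrays. In 39 of 42 members every probe had a positive mean. The exceptions were S30, with 1 probe below 0, and the genes L20 and eIF4B, which were below 0 at all their probes.

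Within members of 4 probes, the ratio on array 1 climbed with the probe's number, a pattern noticed after the values were seen. The mean deviation from the gene's own mean was -0.47, -0.13, 0.12 and 0.48 at probes 1, 2, 3 and 4 in the 32 members. Probe 4 was above probe 1 in 31 of 32 members, or 96.9%, against 46.4% of all 8595 genes of 4 probes. EF1-alpha, for example, had -0.29, 0.20, 1.04 and 1.06 at its 4 probes on array 1, and 1.21, 0.75, 1.20 and 1.14 on array 2.

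Probe 4 was above probe 1 in 17 of the 32 members on array 2 and in 14 on array 3, so the members' own climb was limited to array 1. Of the 288 other genes of 4 probes that were called higher, 93.4% had probe 4 above probe 1 on array 1, 64.6% on array 2 and 54.9% on array 3. Of 680 other genes called lower, 36.5%, 17.4% and 15.7% did. Of all genes of 4 probes, 46.4%, 45.8% and 46.4% did. The climb on array 1 was thus shared by the other genes called higher. Their mean of probe 4 minus probe 1 was 0.76, 0.35 and 0.14 on arrays 1, 2 and 3. In the other genes called lower it was -0.51, -0.60 and -0.68, so a dependence on probe number was not limited to array 1 in these sets. The files do not say where in the transcript a numbered probe lies, and the part of probe position in the ratios was not tested.

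**Figure D5:**
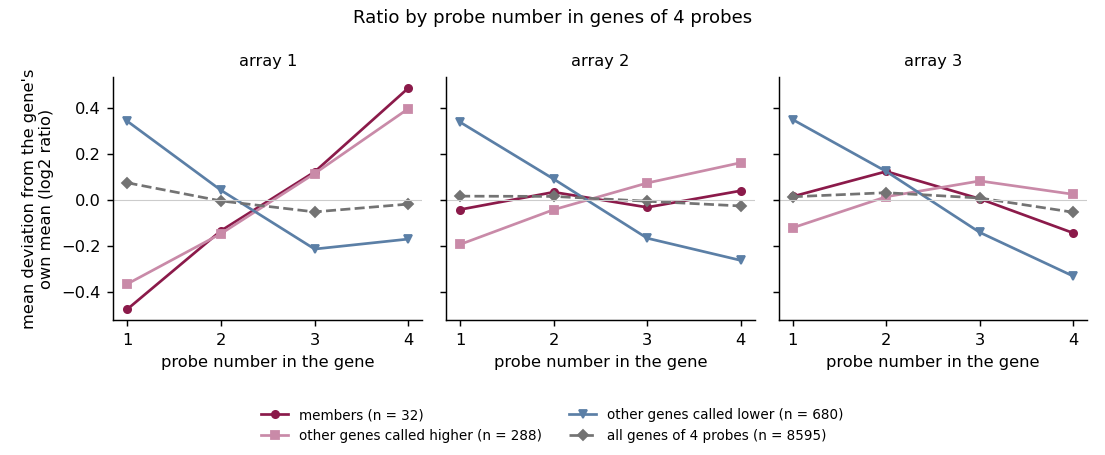
Mean deviation of the log2 ratio from the gene's own mean by probe number, for genes of 4 probes on each array. The 32 members climb by 0.96 between probes 1 and 4 on array 1, with a change of 0.08 on array 2 and -0.16 on array 3.

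Genes with roles next to the ribosome, taken from the same table, were read beside the members, with the same limit on their selection. Of 8 such genes, 5 were called higher and none lower. Among the 978 tabulated genes other than members, 280 were called higher and 293 lower, and of all genes tested 3.95% and 8.31% were. Fibrillarin, the nucleolar enzyme that methylates ribosomal RNA, had ratios of 1.00, 1.18 and 1.17, a mean of 1.12 ± 0.10. A release factor, eRF1-3, which frees the finished chain, had 0.48, 1.71 and 1.35, a mean of 1.18 ± 0.63, with array 1 low as in the elongation factors.

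The other 3 that were called were a protein of the U3 particle, which cleaves the ribosomal RNA precursor, at 0.82 ± 0.07, the exosome subunit RRP41, at 0.83 ± 0.43, and SEC61 alpha, the channel that takes new chains into the endoplasmic reticulum, at 0.95 ± 0.45. A nucleolar protein, Contig3157, averaged -0.44 ± 0.10 and was not called, nor were the mitochondrial ribosomal protein and an organellar amidotransferase (0.25 ± 0.07).

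Markers of the tissues were read beside the members. They were chosen with earlier results of these data known, so their calls are a description only. Over all genes tested, 3.95% were called higher and 8.31% lower. Of 5 genes known from young fiber, GhFDH (1.17 ± 0.65) and MYB109 (1.29 ± 0.73) were called higher and none was called lower. MYB2 (0.60 ± 0.52), GhRDL (0.37 ± 0.33) and GhACY (0.96 ± 1.47) were not called. The summed signal of the 5 genes was 66397 to 81079 in SP2 RNA against 17870 to 50212 in SP1 RNA. That sum was not normalized and came mostly from the bright genes GhRDL, MYB2 and GhFDH. GhRDL had saturated spots, and MYB2 was read by 1 probe. GhACY had -0.73 on array 1 but 1.84 and 1.78 on arrays 2 and 3, against the members, of which 40 of 42 were positive on array 1. In the direction opposite to most members, all 3 markers of dividing cells were called lower. Histone H4 was at -2.26 ± 0.09, histone H2A at -2.28 ± 0.18 and topoisomerase II at -3.33 ± 0.37. Their summed signal was 13061 to 17489 in SP2 RNA against 46021 to 91490 in SP1 RNA. Histone H4 had 2 saturated spots in SP1 RNA. The part of these cell types in the members' ratios was not tested.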

How the data were processed

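The deposited scanner files hold the mean pixel intensity of each spot and of its local background in both channels, quantified with Agilent Feature Extraction and neither background-subtracted nor dye normalized by the authors. A further deposited column, of other kind, flags with 1 the green signals that are well above background. A deposited table gives the authors' log2 of background-subtracted red over green. A recomputation matched it at 42034 of 42034 spots within 1e-08, so it is not centred and not turned for the dye swap. It served as an alternative.

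The arrays had 44290 spots each, including 2256 controls. Background was corrected with normexp (offset 50) and ratios were normalized within arrays by loess in limma 3.58.1 (R 4.3.3). Replicate spots of a probe were averaged first, then the probes of a gene. Of 40372 probes, 38713 were above background in a channel on at least 2 arrays. A red signal counted as above background at 2.6 robust SD over the negative controls, and 65000 units counted as saturated. For each gene, lmFit and eBayes tested the mean of its 3 array ratios against 0, with Benjamini-Hochberg adjustment over 11081 genes. The array was the replicate in the fit and in each SD, and the number of arrays limits the precision. By the codes, arrays 1 and 2 carried the same SP2 RNA, SP2A, and array 3 carried SP2C. Arrays 1 and 2 may thus not be independent on the SP2 side, which n = 3 does not allow for. On simulated data the fit recovered 85.5% of changed genes. Recovery at ratios of the members' size was not tested.

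The members and lists were chosen with earlier results of these data known. All members were eligible to be named, with values per array for the 3 highest and the lowest of each class, for copies of a protein, for means below 0 and for genes next to a threshold. Alternatives were median centring, the deposited ratios, no filter, the median over probes, each array left out, the orientation by labels, saturated spots left out, an ordinary test and the methods' threshold. Gene names are those of the study's table, of which 1020 entries matched the array by identifier. Contig identifiers were not matched to a reference, and no sequences were used here. The study's arrays of older fiber were not analysed here.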

Additional observations from a re-analysis of the deposited data

How the results depend on the processing

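Against 37 members called higher, 15 were called with median centring, 18 with the deposited ratios, 22 at the methods' threshold of 2-fold and an unadjusted p of at most 0.05, 0 with an ordinary test on each gene (which called 2 genes in all) and 0 with the orientation by labels (538 genes of all tested at an unadjusted p under 0.05). With 1 array left out, 27 to 37 were called higher, the fewest without array 2, and 1 to 2 lower. In place of 1 member called lower there were 0 with the deposited ratios, with the ordinary test and with the labels, and 2 without array 1, eIF4B being the second. The mean of the array medians was 0.96 over all members, and it became 1.19 with centring, 1.36 with deposited ratios and -0.34 with the labels. For large subunit proteins it was 0.96 and became 1.21, 1.38 and -0.26, and for small subunit proteins 1.13 and became 1.34, 1.53 and -0.46. For factors it was 0.90 and became 1.36 with deposited ratios and -0.55 with the labels. The large minus small difference was 0.20 with the labels. The labels turned 40 of 42 members and gave pair differences of 0.00497 for S13, -0.072 for S27, -0.23 for L36, -0.17 for L38 and -0.43 for eIF3. Every other setting kept the sign of 42 of 42 members. Leaving out the organellar and bacterial names, chosen after seeing the data, gave 0.97 for all members and -0.15 for large minus small. The labels turn the sign of arrays 2 and 3 by construction; the cause of the other changes was not tested. The 3 arrays and the RNA code shared by arrays 1 and 2 limit these values. The test of within-array ratios is itself a paired one, and no further pairing could be fitted.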
